A study of Mus musculus with 18 samples.

Results

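Ribosomal proteins of the cytosol are the protein parts of the 40S subunit, which reads the mRNA, and of the 60S subunit, which joins amino acids and holds the tunnel through which the new chain leaves. Their genes were followed in 18 lymphomas of Atm-/-, mTerc-/-, p53-/- triple knock-out mice, each set against thymus RNA on 2-colour Agilent arrays. Members were all genes whose symbol is Rpl or Rps followed by a number and at most the letter a or x, with a probe that had values on at least 14 of 18 arrays. This gave 65 of 18147 genes, 24 of the 40S and 41 of the 60S subunit, read by 117 probes, and each had a value in all 18 lymphomas.

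Every lymphoma was deficient in Atm, the kinase activated by broken DNA, in mTerc (Terc), the RNA of telomerase, and in p53, a transcription factor that stops damaged cells. The thymus RNA came from healthy mice of 3 weeks that were heterozygous for p53, and the labels give no age for the mice with lymphoma. With the dyes swapped, every lymphoma was measured again, and 1 log ratio per probe stands for it. No thymus of triple knock-out mice and no lymphoma of another genotype was compared, so the knock-outs, the tumour and the cell content cannot be told apart. Whether each lymphoma is from its own mouse is not in the labels. The p-values thus rest on the spread among these lymphomas alone, which may be partly technical, and the spread of the thymus RNA, 1 control, is not in the test.

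All ratios are given as log2 of lymphoma over thymus. Neither the base of the deposited logarithm nor the numerator is stated. Base 10 was inferred, and the direction is called likely because it places Atm below thymus in 17 of 18 lymphomas (-0.65 ± 0.53, SD, n = 18) and Terc in 18 of 18 (-1.47 ± 0.58). On 1 of its 2 probes alone, Terc lay at -0.27 and did not pass (limma adjusted p = 0.119). Genes of thymic epithelium were lower for 10 of 10 markers, and their mean lay between -5.06 and -0.79 in every lymphoma except lymphoma 12, at 0.37. T cell markers were lower for 7 of 9, with the lowest mean, -3.63, in lymphoma 14. That lymphoma also had the highest mean of macrophage markers (2.06) and of endothelial and fibroblast markers (3.50). Lymphomas 7, 12 and 14 stood apart in such markers, and 7 others (1, 2, 3, 5, 15, 17 and 18) had low macrophage markers, with means between -3.18 and -2.27. In tumour pieces, fewer cells of a type and less RNA per cell cannot be told apart.

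As background, mRNAs of ribosomal proteins start with a C and a run of pyrimidines, the 5′ terminal oligopyrimidine (TOP) motif. Through it the kinase mTOR and the RNA-binding protein Larp1 set how fast they are translated, so levels of these mRNAs and rates of translation can differ. Several of the proteins also act outside the ribosome. Rpl5 and Rpl11, bound to 5S ribosomal RNA, hold back Mdm2 and so protect p53, and in human T-cell leukaemia Rpl5, Rpl10, Rpl11 and Rpl22 are among the mutated genes. In people, loss of 1 copy of many of these genes causes Diamond-Blackfan anaemia.

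Pyrimidine runs were looked for in the DNA around the annotated start site, which can differ from the start used by the cell. Windows from 250 bases before to 50 bases after the start, from RefSeq (GRCm38.p6), were found for 52 of the 65 genes. A run of at least 8 bases that are each C or T lay within 20 bases of the start on the transcribed strand in 26 of the 52 (50%), against 18.4% of 27025 genes. The window from 35 bases before to 15 bases after the start is given here for Rps26 and Rpl15, which were higher in every lymphoma, for Rps9 and Rps10, which were lower, for Rps18, which had a probe with a ratio that many probes of its array shared, and for Rps6, the substrate of the kinase that mTOR activates. Capitals mark the longest unbroken run of C or T near the start, which in Rps26 begins at base 4 of the transcript, after purines.
Rps26 (chr10:128626492-128626541, minus strand): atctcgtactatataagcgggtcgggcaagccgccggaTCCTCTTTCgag
Rpl15 (chr14:18270972-18271021, minus strand): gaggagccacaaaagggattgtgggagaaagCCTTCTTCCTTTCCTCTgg
Rps9 (chr7:3704006-3704055, plus strand): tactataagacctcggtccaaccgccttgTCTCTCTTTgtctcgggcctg
Rps10 (chr17:27635230-27635279, minus strand): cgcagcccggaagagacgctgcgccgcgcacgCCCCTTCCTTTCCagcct
Rps18 (chr17:33955651-33955700, minus strand): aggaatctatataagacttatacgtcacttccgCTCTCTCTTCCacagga
Rps6 (chr4:86857353-86857402, minus strand): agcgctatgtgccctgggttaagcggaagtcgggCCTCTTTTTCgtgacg

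Runs of this kind stood before genes of each outcome. The run was present in 11 of 25 genes that were higher in the lymphomas, in 3 of 4 that were lower and in 12 of 23 that did not pass the test. Of the windows given here, the longest runs span 17 bases in Rpl15 and 13 in Rps10. The sequence CTTTCC within 20 bases of the start, on the transcribed strand and overlapping such runs, was found in 9 of 52 (17.3%), against 2.30% of all genes. CTTCCG, the core bound by Ets factors such as Gabpa, was found on either strand of the 300 bases in 37 of 52 (71.2%), against 18.8%. GCCATC, the core bound by Yy1, was found in 14 (26.9%, against 15.9%), and CACGTG, the E-box that Myc can bind, in 6 (11.5%, against 8.09%), both also on either strand. A match says that these letters are present, not that a factor was bound.

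Most ribosomal protein genes lay slightly above thymus in the lymphomas, and their changes were small. Of the 65, 31 were higher and 4 lower, and 30 did not pass (limma, Benjamini-Hochberg adjusted over all 18147 genes, threshold 0.05). Over all genes, 57.8% passed, 29.9% as higher and 27.9% as lower, and among the ribosomal protein genes 47.7% were higher and 6.15% lower. This difference in shares was not tested, and with the ratio turned the words higher and lower would change places. Their median log2 ratio was 0.17, beside 0.05 over all genes. By subunit, 12 of 24 genes of the 40S were higher and 3 lower with a median of 0.18, and 19 of 41 of the 60S were higher and 1 lower with a median of 0.16.

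As the mean of its probes, no member changed as much as 2-fold, while 2759 of all 18147 genes did so and also passed the test. Single probes of Rps20 (1.18), Rps4x (1.07) and Rps13 (-1.19) passed that size. A mean of at least 0.5 in either direction was reached by 6 of 65 (9.23%), against 38.8% of all genes. The lymphomas also differed little from each other at these genes, with a median SD of 0.28 beside 0.53 over all genes, and 62 of 65 lay under that median. Without lymphomas 7, 12 and 14, 36 genes were higher and 3 lower, beside 31.5% and 30% of all genes. Without the 7 lymphomas of low macrophage markers, 14 were higher and 2 lower, while 19.2% and 20.2% of all genes then passed in these directions on 11 lymphomas.

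**Figure D1:**
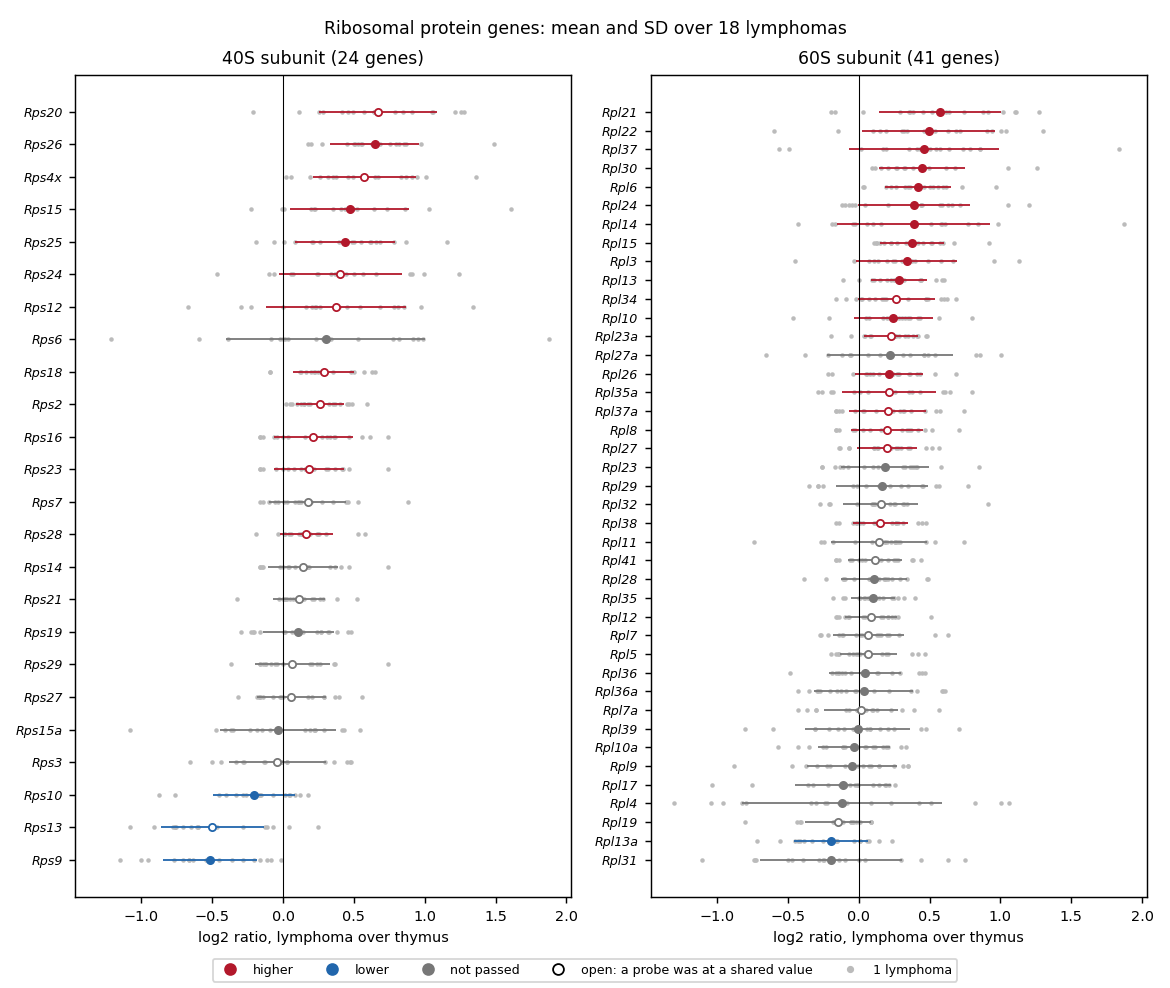
Log2 ratio of lymphoma over thymus (x axis) for the 24 genes of the 40S subunit (left) and the 41 of the 60S subunit (right), ordered by mean. Large points and bars are mean and SD over 18 lymphomas, coloured by the limma call, grey dots are single lymphomas, and open points mark genes with a probe at a value shared on an array. Means run from -0.52 in Rps9 to 0.67 in Rps20, and most SD bars of genes near 0 cross it.

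Rps26, the member with the smallest adjusted p, is a 40S protein at the channel through which mRNA leaves and a frequent Diamond-Blackfan anaemia gene in people. Its log2 ratio was 0.18 in the lowest lymphoma, 0.59 in the median and 1.49 in the highest, lymphoma 9. All 18 lymphomas lay above thymus (0.65 ± 0.31, SD, n = 18, 1.56-fold, limma adjusted p = 1.51e-06).

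Rps20, a protein of the 40S head, had the largest mean (0.67 ± 0.42, limma adjusted p = 1.37e-05). It ranged from -0.21 in lymphoma 14 through a median of 0.64 to 1.28 in lymphoma 9, and 17 of 18 lymphomas were above thymus. Rps4x, a 40S protein encoded on the X chromosome, lay between 0.02 and 1.36 with a median of 0.53 and was above thymus in 18 of 18 (0.57 ± 0.36, adjusted p = 2.19e-05 in limma). In both genes 1 of the 2 probes was high and the other near 0.

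Rps15, a 40S protein needed for export of the young subunit and mutated in human chronic lymphocytic leukaemia, had values of -0.23, 0.45 and 1.61 (lowest, median and highest) and rose by 0.47 ± 0.42 (limma adjusted p = 5.87e-04). Rps25, which helps viral and some cellular mRNAs to start translation without a cap, had -0.19, 0.49 and 1.15 and rose by 0.43 ± 0.35 (limma adjusted p = 3.35e-04). Each was above thymus in 16 of 18 lymphomas, and the lowest value of both was in lymphoma 14.

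In the 60S subunit the largest mean was that of Rpl21. It ran from -0.19 through a median of 0.57 to 1.27 (0.57 ± 0.43, limma adjusted p = 9.96e-05) and was above thymus in 16 of 18. Rpl30 lay between 0.09 and 1.26 with a median of 0.41 (0.45 ± 0.31, limma adjusted p = 9.10e-05). Rpl6 lay between 0.03 and 0.97 with a median of 0.41 (0.42 ± 0.23, limma adjusted p = 2.81e-05).

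Rpl30 and Rpl6 were above thymus in every lymphoma, without overlap with 0. So were Rpl15 (0.38 ± 0.23) and Rps2 (0.26 ± 0.17), a protein at the entry of the mRNA channel. In all, 6 members were above thymus in 18 of 18 and 1 below, or 9.23% and 1.54%, against 4.61% and 3.69% of all genes. Rpl37, by contrast, was high on average (0.46 ± 0.53, limma adjusted p = 0.00339) but spread widely, from -0.56 in lymphoma 9 through a median of 0.48 to 1.84 in lymphoma 13.

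The other genes that rose were, in the 40S subunit, Rps24, Rps12, Rps18, Rps16, Rps23 and Rps28, and, in the 60S subunit, Rpl24, Rpl14, Rpl3, Rpl13, Rpl34, Rpl10, Rpl23a, Rpl26, Rpl35a, Rpl37a, Rpl8 and Rpl27 together with Rpl38, a protein that in mouse embryos favours translation of Hox mRNAs. Their means ran from 0.15 in Rpl38 to 0.41 in Rps24. The weakest of them depended on single lymphomas. Rpl35a and Rpl38 each lost their call when any of 9 lymphomas was left out, Rps23 without lymphoma 5, 6, 10 or 18, Rps28 without 6 or 10, and Rpl37a without 18. With arrays centred on their median, these 5 genes and Rps16 and Rpl8 did not pass. Rps16, Rps23, Rpl8 and Rpl37a were each read by 1 probe. On 12, 10, 9 and 8 of 18 arrays, in this order, that probe had a ratio that many probes of the array shared.

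Lower levels were seen in 4 genes, of which 3 are in the 40S subunit. Rps9, a protein near the decoding site, had values of -1.15, -0.54 and -0.02 (lowest, median and highest). It was below thymus in all 18 lymphomas (-0.52 ± 0.33, SD, n = 18, 1.43-fold lower, limma adjusted p = 3.71e-05). Its promoter window carries a run of 9 pyrimidines, from base -6 to base 3 around the start. The run of Rps26 is as long but lies at bases 4 to 12. Whether such runs go with the direction of change was not tested.

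Rps13 ran from -1.08 through a median of -0.61 to 0.25 in lymphoma 6, and 16 of 18 lymphomas were below thymus (-0.50 ± 0.36, limma adjusted p = 1.04e-04). Rps10, a Diamond-Blackfan anaemia gene in people and a protein that is ubiquitinated when ribosomes stall, had -0.88, -0.17 and 0.18 (-0.20 ± 0.29, limma adjusted p = 0.0303). Rpl13a, which in human monocytes leaves the ribosome to silence inflammatory mRNAs, had -0.72, -0.16 and 0.24 (-0.19 ± 0.26, limma adjusted p = 0.0273).

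Rps10 and Rpl13a were below thymus in 12 of 18 lymphomas each and overlapped 0. Rps10 lost its call without lymphoma 1, 2, 8 or 14, and Rpl13a without lymphoma 8. Leaving out lymphoma 8 thus left 2 lower genes, Rps9 and Rps13.

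The widest spread between lymphomas was that of Rpl4 and Rps6, with an SD of 0.70 each. Rpl4, which lines the exit tunnel of the 60S subunit, was at -1.31 in lymphoma 14, -0.18 in the median and 1.06 in lymphoma 18 (mean -0.12, limma adjusted p = 0.543). Rps6 was at -1.21 in lymphoma 2, 0.25 in the median and 1.87 in lymphoma 9 (0.30 ± 0.70, limma adjusted p = 0.111).

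For Rps6, lymphoma 9 was the only case in which a member lay more than 1.5 from its median. Without lymphoma 2, Rps6 passed (0.39, limma adjusted p = 0.0272), as it did on 1 of its 2 probes (0.63, limma adjusted p = 0.0180). Rpl14 ran from -0.43 through 0.39 to 1.87 in lymphoma 13 (0.39 ± 0.54, limma adjusted p = 0.0123). Rpl31, at the mouth of the exit tunnel, ran from -1.11 through -0.25 to 0.75 (-0.20 ± 0.50, limma adjusted p = 0.160), and Rps12 from -0.67 through 0.32 to 1.34 (0.37 ± 0.50, limma adjusted p = 0.0102).

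These 5 genes show opposite signs in different lymphomas, as do all members except the 6 above and the 1 below thymus in every lymphoma. Lymphoma 14 held the lowest value of Rpl4, Rpl14 and Rps12, while Rps6 was lowest in lymphoma 2 and Rpl31 in lymphoma 6.

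Of the 4 listed genes mutated in human T-cell leukaemia, 2 rose (50%, against 29.9% of all genes and 47.7% of the family) and 2 did not pass. Rpl22, a 60S protein that mouse T cells need to mature, ran from -0.60 in lymphoma 9 through a median of 0.50 to 1.30 in lymphoma 15 (0.49 ± 0.47, above thymus in 16 of 18, limma adjusted p = 8.63e-04). Rpl10, which completes the 60S subunit, ran from -0.47 through 0.27 to 0.80 (0.24 ± 0.28, above thymus in 16 of 18, limma adjusted p = 0.00906). Without the 7 lymphomas of low macrophage markers, Rpl22 was at 0.30 and did not pass (limma adjusted p = 0.0991).

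Rpl5 ran from -0.20 through 0.03 to 0.47 (0.07 ± 0.20, limma adjusted p = 0.368), and Rpl11 from -0.74 in lymphoma 9 through 0.22 to 0.75 (0.14 ± 0.34, limma adjusted p = 0.168). Both crossed 0, and Rpl11 passed without lymphoma 9 (0.19, limma adjusted p = 0.0375) and on 1 of its 2 probes (0.20, limma adjusted p = 0.0261). On 7 of 18 arrays that probe had a ratio that many probes of the array shared. The other probe of Rpl11, never at such a ratio, was at 0.08 ± 0.61 and did not pass. Lymphoma 9 was the lowest of all lymphomas for Rpl11, Rpl22 and Rpl37, and the highest for Rps6, Rps20, Rps26 and Rps15.

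Of 7 measured proteins on a list of Mdm2 binders that is not complete, 1 rose and 6 did not pass. The share that rose, 14.3% against 29.9% of all genes and 47.7% of the family, depends on which binders were listed. The one that rose was Rpl26, which also binds p53 mRNA, with -0.22, 0.26 and 0.69 (0.21 ± 0.24, above thymus in 15 of 18, limma adjusted p = 0.0118). Besides Rpl5 and Rpl11, those that did not pass were Rpl23 (-0.26, 0.22 and 0.85, mean 0.18), Rps7 (-0.16, 0.11 and 0.88, mean 0.17), Rps3 (-0.66, -0.03 and 0.48, mean -0.04) and Rps27 (-0.32, -0.01 and 0.55, mean 0.06).

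Of 17 measured Diamond-Blackfan anaemia genes 7 (41.2%) were higher, against 29.9% of all genes and 47.7% of the family, among them Rps26, Rps24 and Rpl15, and 1, Rps10, was lower, while Rps19, a common site of mutation in that disease, was at 0.11 ± 0.25 (limma adjusted p = 0.199). Of 8 proteins around the exit tunnel, Rpl23a (0.23 ± 0.19) and Rpl26 were higher (25%) and the other 6 did not pass. Of 7 measured proteins on a list for the mRNA channel, 5 were higher (71.4%): Rps26, Rps15, Rps2, Rps23 and Rps28. Rps3 and Fau did not pass. The list is not complete, and this share depends on it. It leaves out Rps9, which was lower (-0.52), and Rps14, which did not pass (0.14). Without probes that ever had a ratio shared by many probes, Rps28 did not pass and Rps23 had no probe left. The calls of these 2 genes were also lost without single lymphomas.

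Many probes of ribosomal protein genes carried one and the same ratio on an array. On 15 of 18 arrays at least 5 of the 117 probes lay within 0.001 of a common log2 value. In lymphoma 11, 31 of 117 probes (26.5%) were at -0.14, and in lymphoma 12, 28 (23.9%) were at -0.16. In lymphoma 7, 19 of 116 (16.4%) were at 0.20, and in lymphoma 18, 8 were at 0.74.

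Of the named probes of genes outside the family, at most 0.0664% lay at that value on any array. The value differed between arrays, from -0.16 in lymphomas 12 and 16 to 0.74 in lymphoma 18, and in lymphomas 2, 10 and 14 no value was shared by 5 probes. In lymphoma 2, 4 probes lay at 0.41, and in lymphoma 10, 3 probes at 0.55. The shared values made up 195 of 2102 probe values and touched 31 of the 65 genes. Outside the symbol pattern it was also taken by Rplp2 (14 probe values), Rplp0 (12) and Rplp1 (10), which form the stalk of the 60S subunit, and by the histone genes H2ac1 and H2ac10 (9 each) and the mitochondrial COX2 (7).

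**Figure D2:**
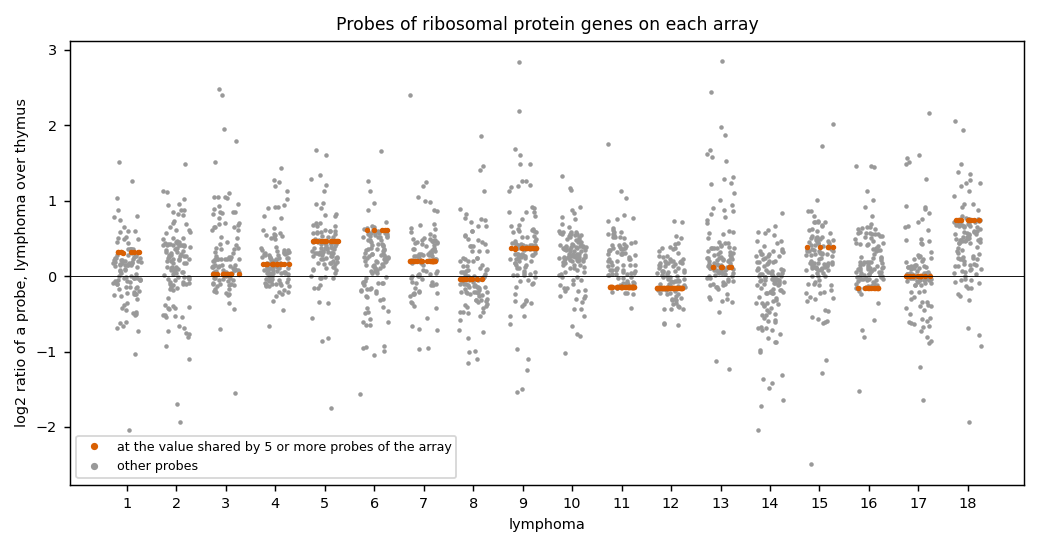
Log2 ratio of lymphoma over thymus (y axis) of the 117 probes of ribosomal protein genes on each array (x axis, lymphoma number), 1 dot per probe. Orange dots are probes at the value shared by at least 5 of them and form flat lines on 15 arrays, at heights from -0.16 to 0.74, while lymphomas 2, 10 and 14 have no value shared by 5 probes.

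Probes that never took the shared value had a wider range of means. The 84 such probes had means between -1.19 and 1.18 and a median SD of 0.37, and 40 were higher and 7 lower (limma adjusted over all named probes). The 16 probes at the shared value on 6 or more arrays had means between 0.06 and 0.27 and a median SD of 0.26, and 11 were higher and none lower. The share called over all named probes was not counted, so these counts cannot be set against it. For a gene such as Rps16, read by 1 probe that was at the shared value on 12 of 18 arrays, the ratio was 0.21 ± 0.28 (limma adjusted p = 0.0205), and without these values 0.34 (limma adjusted p = 0.0740).

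When all probes ever at a shared value were left out, a choice made after seeing the data, 52 genes remained. Of these, 24 were higher and 5 lower, beside 29.8% and 27.9% of all genes. When only the values at the shared value were left out, 29 of 65 were higher and 4 lower, beside 29.8% and 27.9% of all genes. Signals of single spots, including any marks of saturation, were not used here, and the cause of the shared value was not tested.

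Probes of the same gene could differ. Of the 37 genes with more than 1 probe, 2 had probes that passed in opposite directions. Rps13 had 1 probe at -1.19 ± 0.76, lower in 18 of 18 lymphomas and never at a shared value, and another at 0.19 ± 0.25 (limma adjusted p = 0.0368), and its mean of -0.50 lies between them. Rps28 had 4 probes with means of -0.36, 0.25, 0.34 and 0.43, and without the probes ever at a shared value its mean was 0.03 (limma adjusted p = 0.729).

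For Rps20 the probe never at a shared value was at 1.18 ± 0.88, and the other, at the shared value on 12 arrays, was at 0.16 ± 0.27 and did not pass (limma adjusted p = 0.0741). For Rps4x the means were 1.07 ± 0.59 and 0.08 ± 0.25, and for Rps24 they were 0.91, 0.18 and 0.12. Such gaps also occurred where no probe took a shared value. Rpl22 had probes at 0.83 ± 0.71 and 0.16 ± 0.37, of which the second did not pass (limma adjusted p = 0.161), and Rps6 had probes at 0.63 ± 0.97 and -0.02 ± 0.60.

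The genes of ribosomal proteins have many processed copies elsewhere in the genome. Which transcripts each probe reads was not tested.

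**Figure D3:**
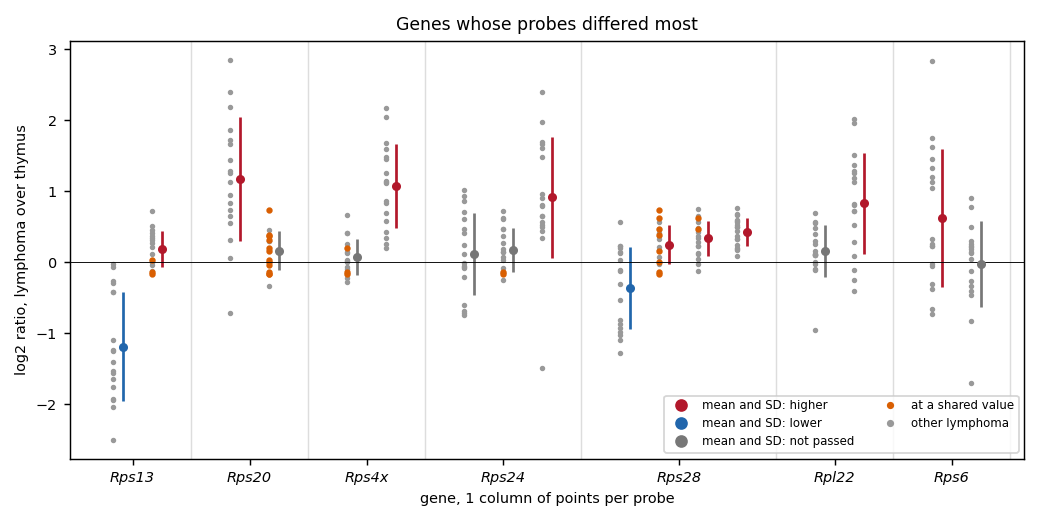
Log2 ratio of lymphoma over thymus (y axis) of each probe of 7 genes whose probes differed most, 1 column of dots per probe and 1 dot per lymphoma, with mean and SD coloured by the limma call and orange dots at a shared value. Rps13 and Rps28 have probes on both sides of 0, and in Rps20 and Rps4x the probe near 0 is the one with orange dots.

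Lymphomas differed in the level of ribosomal protein genes as a whole. The median was highest in lymphoma 18 (0.48, with 60 of 65 genes above 0), lymphoma 5 (0.39, 59 genes) and lymphoma 9 (0.35, 53 genes). It was lowest in lymphoma 14 (-0.10, 23 genes above 0), lymphoma 12 (-0.09, 26 genes) and lymphoma 8 (-0.04, 28 genes). The 34 genes with no probe at a shared value had their highest mean in lymphoma 13 (0.42) and their lowest in lymphoma 14 (-0.25), and the 31 with such a probe had them in lymphoma 18 (0.56) and lymphoma 12 (-0.10). Over all genes the array medians lay between -0.04 and 0.08.

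Lymphoma 18 held the highest value of 22 of the 65 genes, and lymphoma 14 the lowest of 19 and lymphoma 12 of 14. The shared value was 0.74 in lymphoma 18 and -0.16 in lymphoma 12, while lymphoma 14 had no value shared by 5 probes. In lymphomas 14 and 12 the mean of 20 other TOP mRNAs was low too (-0.13 and 0.05), against 0.76 in lymphoma 18. Ribosome biogenesis genes had a mean of -0.08 in lymphoma 14 and 0.27 in lymphoma 12, the lowest of the 18, and 0.77 in lymphoma 18. Lymphoma 8, also low in ribosomal protein genes, had means of 0.31 for TOP mRNAs, 0.96 for biogenesis and 0.73 for proliferation genes. Proliferation genes were lowest in lymphoma 14 (-0.83), where macrophage, endothelial and fibroblast markers were highest. The part of cell content in these levels was not tested.

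**Figure D4:**
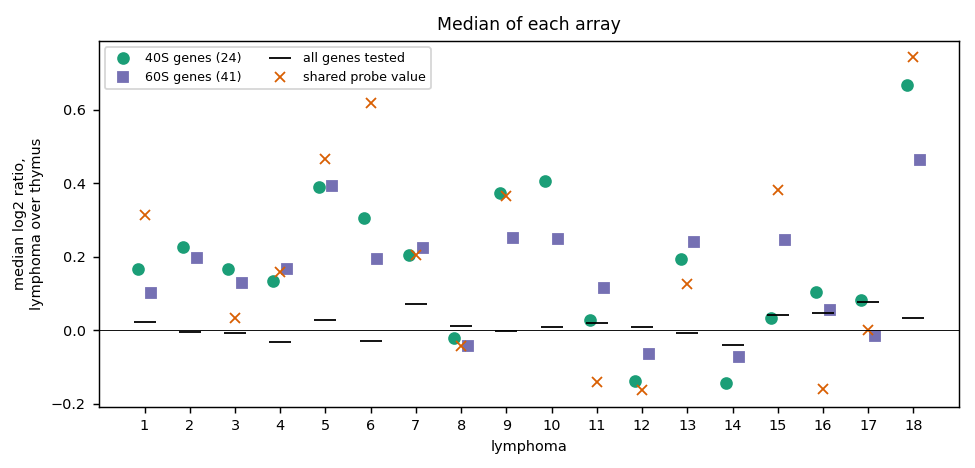
Median log2 ratio of lymphoma over thymus (y axis) on each array (x axis, lymphoma number) for the 24 genes of the 40S (circles) and 41 of the 60S subunit (squares), with the median of all genes (bars) and the shared probe value (crosses). Both subunits are highest in lymphoma 18 and lowest in lymphomas 12 and 14, while the bars stay between -0.04 and 0.08.

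Of 6 measured ribosomal protein genes outside the symbol pattern, 4 were higher (66.7%, against 29.9% of all genes). They were Rplp0 (0.37 ± 0.22, 17 of 18 lymphomas), Rpsa (0.30 ± 0.51), Rplp2 (0.23 ± 0.27) and Rplp1 (0.22 ± 0.27). Rpsa, a 40S protein that also serves as a laminin receptor, lost its call without any 1 of 11 lymphomas. Rps3a1 fell by 0.30 (SD 0.42, below thymus in 15 of 18, limma adjusted p = 0.0168), and Fau, which encodes a 40S protein fused to a ubiquitin-like one, was at 0.15 ± 0.23 and did not pass (limma adjusted p = 0.0607).

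Paralogs can take the place of a standard ribosomal protein, and of 6 measured, 2 were higher and 3 lower. These are 33.3% and 50%, against 29.9% and 27.9% of all genes. Rpl39l, the testis form of Rpl39, had -4.00, -2.83 and 1.27 (lowest, median and highest) and was below thymus in 17 of 18 lymphomas (-2.53 ± 1.15, 5.76-fold lower, limma adjusted p = 1.06e-07), while Rpl39 itself was at -0.01 ± 0.37. Rpl3l, the form of Rpl3 found in heart and skeletal muscle, had -1.47, 1.42 and 5.25 and was above thymus in 14 of 18 (1.83 ± 2.19, limma adjusted p = 0.00287). Rpl3 was at 0.34 ± 0.36.

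Rpl22l1 had -2.45, -1.09 and 1.45 and was below thymus in 14 of 18 lymphomas (-0.84 ± 1.04, 1.79-fold lower, limma adjusted p = 0.00419). In 14 lymphomas Rpl22 was above thymus and Rpl22l1 below it, with Rpl22 above thymus in 16 of 18 in all. A link between the 2 genes was not tested. As the mean of its probes, Rpl22 lay below thymus in lymphomas 9 and 14. In lymphoma 9 Rpl22 was at -0.60 and Rpl22l1 at its highest value of 1.45, and in lymphoma 14 they were at -0.15 and 0.02. Only in lymphoma 9 were both probes of Rpl22 below thymus, while in lymphoma 14 they were at 0.10 and -0.40. In lymphomas 5 and 18 both genes were above thymus, with Rpl22 at 0.63 and 0.69 and Rpl22l1 at 0.81 and 0.37. As background, the Rpl22 protein lowers expression of Rpl22l1 in mouse cells.

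Rps27l, a paralog of Rps27 that p53 induces, was slightly lower, with -0.80, -0.21 and 0.07 (-0.22 ± 0.24, below thymus in 15 of 18, limma adjusted p = 0.0100), and Rps27 was at 0.06 ± 0.24. Rpl7l1 was at 0.28 ± 0.30 and higher (limma adjusted p = 0.00489), but at -0.047 on 1 of its probes alone, and Rpl36al at -0.08 ± 0.25 did not pass (limma adjusted p = 0.367).

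**Figure D5:**
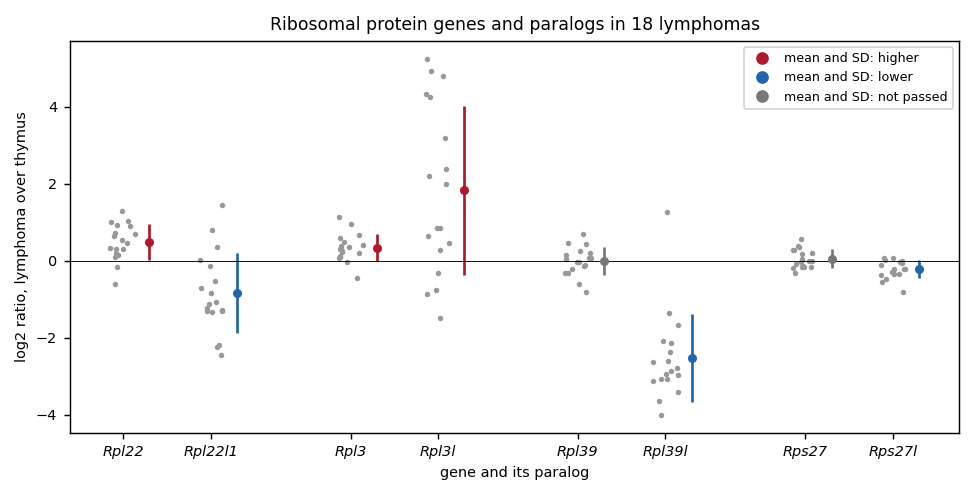
Log2 ratio of lymphoma over thymus (y axis) in 18 lymphomas, 1 dot each, for 4 ribosomal protein genes and their paralogs, with mean and SD coloured by the limma call. The paralogs spread more widely for Rpl22l1, Rpl3l and Rpl39l, and the single dot of Rpl39l above 0 stands at 1.27.

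Genes that make and control ribosomes were measured on the same arrays, and their counts stand beside 29.9% higher and 27.9% lower over all genes. Of 20 other TOP mRNAs, for translation factors and related proteins, 13 were higher (65%) and 3 lower. Eef1d, a subunit of the factor that reloads elongation factor 1, rose by 0.74 ± 0.28 and Eif3l, a subunit of initiation factor 3, by 0.50 ± 0.24, both in 18 of 18 lymphomas, and Eif4b, which aids the helicase that unwinds mRNA, by 0.89 ± 0.48 in 17. The 3 lower ones were Tpt1 (-0.40 ± 0.30), Eif2s3x (-0.53 ± 0.40), which did not pass on 1 of its probes alone (limma adjusted p = 0.0723), and Naca (-0.21 ± 0.25).

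Of 14 genes that control TOP mRNAs, 10 were higher (71.4%) and 1 lower. Mtor (1.19 ± 0.49) and Larp1 (1.18 ± 0.48) were above thymus in 18 of 18, and Eif4ebp1, which blocks the cap-binding factor until mTOR phosphorylates it, reached 1.68 ± 1.27. Tia1, which represses TOP mRNAs under starvation, was lower (-0.60 ± 0.43, 17 of 18).

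Dedicated chaperones and importers, known mainly from yeast and human cells, escort new ribosomal proteins to the nucleolus. Of 18 measured, 15 were higher (83.3%) and 1 lower, with a median of 0.62. Grwd1, the chaperone of Rpl3, was at 1.23 ± 0.42, while Rpl3 was at 0.34. Tsr2, which escorts Rps26, was at 0.68 ± 0.49, beside 0.65 for Rps26. Heatr3, which imports Rpl5, was at 1.09 ± 0.50, and Rrs1, which brings Rpl5 and Rpl11 to the young subunit, at 0.96 ± 0.36, while neither Rpl5 nor Rpl11 passed. Bccip, a chaperone of Rpl23, was lower (-0.31 ± 0.31).

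Of 22 ribosome biogenesis genes, 18 were higher (81.8%) and none lower, with a median of 0.70. Among 9 genes for factors that act at promoters of ribosomal protein genes, 5 were higher (55.6%) and 1 lower. Myc, which drives ribosome production, was at 1.55 ± 0.66 (17 of 18). Gabpb1, a subunit of the Ets factor whose core was common in promoter windows, was at -0.39 ± 0.25 (18 of 18 below thymus). The related Gabpb2 was higher (0.27 ± 0.42, limma adjusted p = 0.0294) but lost its call without any 1 of 7 lymphomas. Gabpa was at -0.24 ± 0.62 and did not pass (limma adjusted p = 0.149).

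Of 6 genes that, in human cells, act in the removal of surplus or stalled ribosomal proteins or spare them from it, 4 were higher. Among them were Ube2o (0.73 ± 0.34, 18 of 18), which tags unassembled ribosomal proteins, and Usp10 (0.77 ± 0.28, 18 of 18), which spares 40S subunits. Mdm2, also a p53 target gene, was at -0.16 ± 0.42 and did not pass (limma adjusted p = 0.185). Of 7 that rescue stalled ribosomes, Gcn1 (0.83 ± 0.41) and Abce1 (0.65 ± 0.40) were higher and Edf1 (-0.34 ± 0.39) lower.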

How the data were processed

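Total RNA of 18 lymphomas was hybridised with dye swap against thymus RNA. The authors deposited 1 log ratio per probe and lymphoma, read here as log10, a base inferred since Agilent software writes it. Feature extraction, normalization and the joining of both dye orientations were steps not given in the sources used here. Multiplication by 3.3219 gave log2 ratios, which were not centred. Of 41175 probes, 31700 carry 1 gene symbol through the platform annotation, 47 several and 9428 none here. Probes needed a value on 14 of 18 arrays, and probes of a gene were averaged. The number of arrays limits the precision.

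Means were compared with 0 in limma 3.58.1 (R 4.3.3, an intercept in lmFit, then eBayes), with Benjamini-Hochberg adjustment over 18147 genes and a threshold of 0.05, after a check on simulated data. The members and lists were chosen with earlier results of these data known. Values of lymphomas are given for the 10 largest increases, all decreases, the 6 largest SDs, the leukaemia and Mdm2 lists and paralogs, and up to 5 genes of each other list. Promoter windows are from RefSeq (GRCm38.p6). Alternatives covered scaling, missing values, probe choice, array weights and left-out lymphomas.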

Additional observations from a re-analysis of the deposited data

How the results depend on the processing

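The counts of 31 higher and 4 lower genes were 24 and 5 with arrays centred on their median, 30 and 5 after quantile normalization, 32 and 6 with 1 probe per gene, 30 and 4 with the median of probes, 35 and 4 with array weights, and 35 and 5 with the ribosomal protein genes outside the pattern added. Over all genes, these alternatives called between 27% and 31.9% higher and between 27.6% and 30.4% lower. The counts fell to 14 and 2 without lymphomas 1, 2, 3, 5, 15, 17 and 18, where fewer samples were fitted (19.2% and 20.2% of all genes). They fell to 19 and 2 when the same sign in 16 of 18 lymphomas was asked for (15.9% and 17% of all genes). Leaving out 1 lymphoma gave 27 to 36 higher and 2 to 4 lower genes, with 2 lower without lymphoma 8. Over all genes, 28.5% to 30.8% were then higher and 27% to 29.3% lower. With 1 probe per gene, Rpl9 turned to 0.21, Rps28 to -0.36, Rpl7l1 to -0.047 and Pes1 to -0.54; the cause was not tested. The calls of 14 genes, 12 higher (Rpl3, Rpl6, Rpl10, Rpl13, Rpl15, Rpl21, Rpl30, Rpl37, Rps15, Rps20, Rps25 and Rps26) and 2 lower (Rps9 and Rps13), held in every alternative fit that gave them a value. None of these fits took the second probe of Rps13 alone, which was higher (0.19) where the gene was called lower. The same holds for the second probes of Rps20 (0.16), Rpl37 (0.31) and Rpl13 (0.25), which did not pass. For these genes the probe choice thus could not change the call. The spot signals were not used here, so dim and saturated spots could not be set aside. No paired analysis was possible because all lymphomas form 1 group.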
